A study of Mus musculus with 6 samples.

Results

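The 10 genes described here encode proteins of the skeletal muscle triad, the junction where a membrane signal is turned into calcium release. They are Cacna1s, Cacnb1, Cacng1 and Cacna2d1 for the subunits of the voltage sensor, Stac3 for its adaptor, Ryr1 for the release channel, Jph1 and Jph2 for the junctophilins, and Trdn and Jsrp1 for proteins of the junctional sarcoplasmic reticulum. They were chosen by gene symbol, and each had 1 feature that carried its symbol alone, so 10 of 30142 genes with such a feature are described. All 10 passed the filter on dim features. RNA of whole soleus, a slow postural muscle of the calf, was measured on Affymetrix whole-transcript arrays in 3 cKO mice (genotype DMP1 Cre Mbtps1 knockout) and in 3 Control mice (labelled wild type, and littermates by the series title). All were males of 39 to 41 weeks, soleus was taken from each leg, and each mouse gave 1 array. Regulatory sequence of Dmp1, a gene of osteocytes in bone, drove the Cre recombinase, and the labels did not say which cells of the soleus it reached. The labels did not say whether the Control mice carried the Cre or a floxed allele.

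In a muscle fibre the action potential runs inward along the transverse tubules (T-tubules). There the voltage sensor, an L-type calcium channel also called the dihydropyridine receptor, changes shape and opens the ryanodine receptor of the facing sarcoplasmic reticulum through physical contact. Junctophilins hold the facing membranes together, and triadin and its partners link the release channel to the calcium store. Fast fibres are known to hold more voltage sensors and release channels than slow fibres.

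The mouse numbers in the labels fell in 2 ranges, with cKO 1 (733), Control 1 (715) and Control 2 (716) low and cKO 2 (779), cKO 3 (780) and Control 3 (776) high. What a range stands for was not stated, and differences are therefore also given within each range, where 1 array of one genotype faced 2 of the other. Array medians ran from 4.0 to 4.37 log2 units in cKO and from 4.02 to 4.13 in Control, and cKO 1 held the highest. Differences within a range use values not centred on these medians, so the high median of cKO 1 enters every low-range difference. Correlations between arrays lay between 0.970 and 0.995 over the 33334 features tested. Of 8 muscle identity genes, 5 lay within 0.5 log2 units of the array maximum on every array, and of 7 osteocyte and bone genes, 6 lay less than 0.5 log2 units above the array median on every array, Dmp1 among them. The signal of Mbtps1 was 7.77, 7.44 and 7.11 in cKO 1 to 3 and 7.39, 7.05 and 7.24 in Control 1 to 3 (difference 0.21 log2 units, SE 0.21, limma adjusted p = 0.999), and since the cells with the deletion and the stretch of Mbtps1 on the feature were not stated, this level does not check the labels. In whole muscle, fewer cells of a type and less RNA per cell cannot be told apart. Whether the 3 mice of a group came from separate litters was not stated, and 3 arrays per group limit the precision of every value.

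The genes whose groups separated were all subunits of the voltage sensor. Of its 4 subunits, Cacng1, Cacnb1 and Cacna1s had higher signals on all 3 cKO arrays than on any Control array, while the auxiliary subunit Cacna2d1 and all 6 genes of the adaptor, release channel, junctophilins and junctional reticulum overlapped between the groups. None of the 10 passed the test: limma gave an adjusted p of 0.999 for each, and 0 of all 33334 features tested passed 0.05 (0% background). At an unadjusted p under 0.05 there were 3 of 10 triad genes, against a background of 4.50% of features tested in either direction with 3.70% in the higher and 0.807% in the lower direction. The same 3 genes were those whose groups did not overlap, against 11.0% of features in either direction with 8.95% in the higher and 2.05% in the lower direction. Groups of 3 arrays that do not overlap give an exact two-sided permutation p of 0.1, the smallest this design allows. Over the 10 genes, 6 were higher and 4 lower in cKO, on the deposited scale as well as after quantile normalization and after median centring. Their median difference was 0.27 log2 units, beside 0.07 over all features tested, of which 65.8% were higher.

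**Figure D1:**
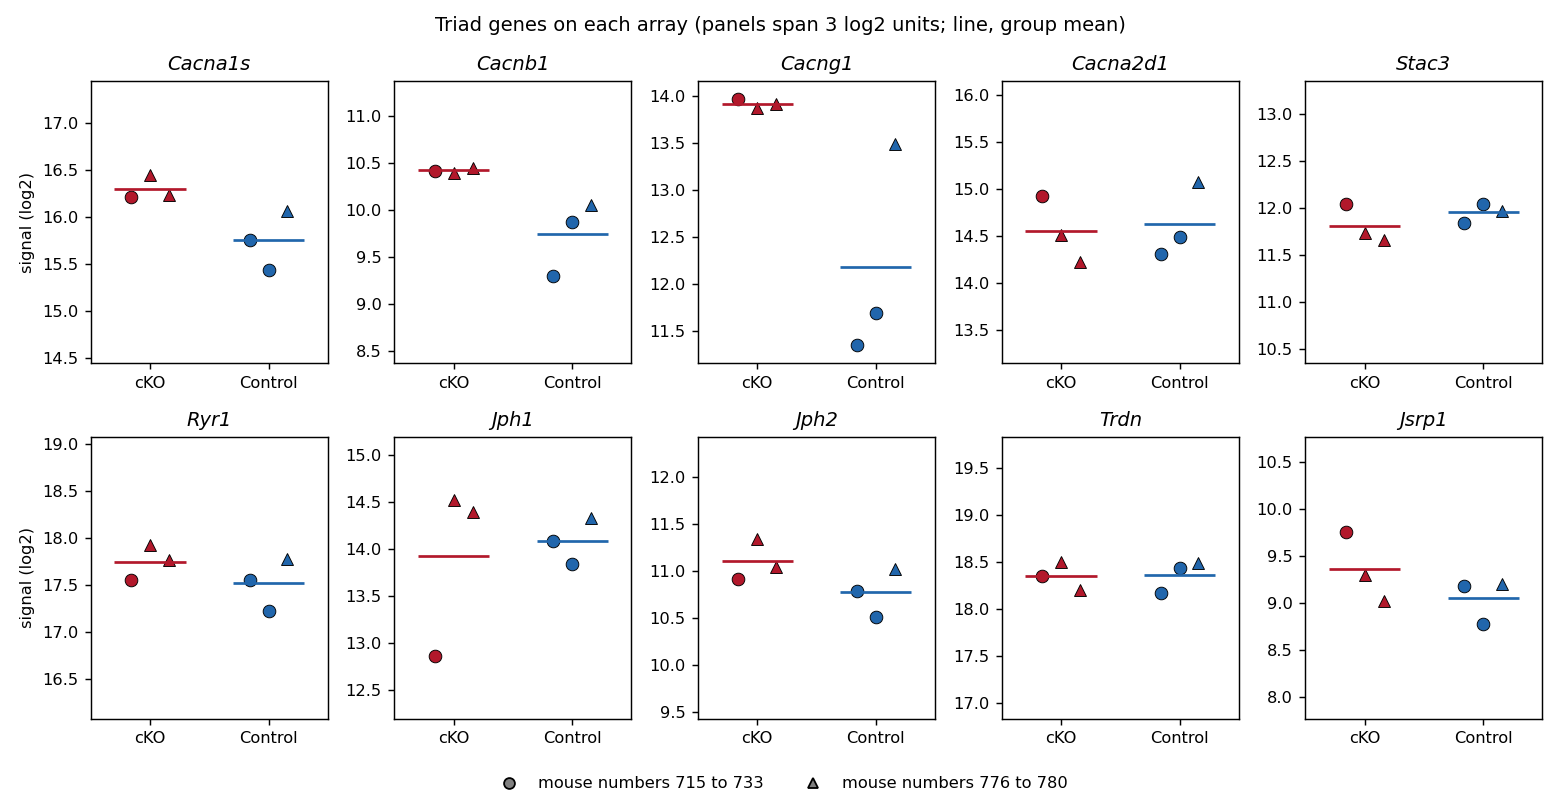
Signal (log2, vertical axis) of each triad gene on each array, with cKO left of Control in each panel, circles for low and triangles for high mouse numbers, and lines for group means (n = 3). Cacng1, Cacnb1 and Cacna1s show 3 cKO arrays above all Control arrays, and Jph1 has 1 cKO array, cKO 1 at 12.87, far below the other arrays.

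Cacng1 encodes the gamma subunit of the skeletal muscle channel, a membrane protein known to dampen its calcium current. Its signal was 13.96, 13.87 and 13.91 log2 units in cKO 1 to 3, against 11.35, 11.69 and 13.49 in Control 1 to 3. The cKO arrays lay within 0.1 log2 units of each other, and the Control arrays fell into a pair near the bottom and Control 3 close to the cKO level. The mean was 13.91 ± 0.05 in cKO and 12.18 ± 1.15 in Control (SD, n = 3 each), a difference of 1.74 log2 units (SE 0.54, 95% interval 0.45 to 3.03), which is 3.33-fold. Of the 33334 features tested, 20 had a larger positive difference. The Cacng1 difference was 2.44 among the low-numbered mice and 0.40 among the high-numbered mice. Without Control 3 it was 2.39 and the limma adjusted p was 0.0598, the lowest over the alternatives run.

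Cacnb1 encodes the beta subunit, which carries the channel to the T-tubule membrane and is needed for coupling. Its signal was 10.42, 10.40 and 10.45 in cKO 1 to 3, against 9.30, 9.88 and 10.06 in Control 1 to 3. Again the cKO arrays were nearly equal and the Control arrays spread below them. The difference was 0.68 log2 units (SE 0.24, 95% interval 0.10 to 1.25), or 1.60-fold, with 0.83 among low-numbered and 0.36 among high-numbered mice. Cacna1s encodes the pore-forming alpha subunit that senses the voltage. It stood at 16.21, 16.45 and 16.23 in cKO 1 to 3, against 15.75, 15.44 and 16.06 in Control 1 to 3. All cKO values were above the highest Control value, by at least 0.1 log2 units. The difference was 0.55 log2 units (SE 0.22, 95% interval 0.03 to 1.07), or 1.46-fold, with 0.61 among low-numbered and 0.28 among high-numbered mice. The 3 genes below an unadjusted p of 0.05 became 0 when cKO 1 was left out, 1 without Control 1, cKO 2 or cKO 3 in turn, and 2 without Control 2, with Cacng1 named in each count above 0. They became 1, Cacng1, after median centring, and likewise with the mouse number range as a block, where the differences of Cacng1, Cacnb1 and Cacna1s were 1.42, 0.60 and 0.45 log2 units.

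Promoter sequences are shown for the voltage sensor genes with separated groups that RefSeq windows covered, so that the letters upstream of genes higher on the same arrays can be compared. RefSeq windows on GRCm38.p6, from 250 bases before to 50 bases after a start, were matched for 5 of the 10 genes (Cacna1s, Cacnb1, Cacna2d1, Jph2 and Ryr1), with 7 windows in all. Capitals mark each E-box, CANNTG, the motif that myogenic factors such as MyoD bind, which reads the same on both strands. The Cacna1s window lies on the plus strand at chr1:136052561-136052860, and the 2 windows of Cacnb1 lie on the minus strand at chr11:98018323-98018622 and chr11:98022578-98022877.
Cacna1s: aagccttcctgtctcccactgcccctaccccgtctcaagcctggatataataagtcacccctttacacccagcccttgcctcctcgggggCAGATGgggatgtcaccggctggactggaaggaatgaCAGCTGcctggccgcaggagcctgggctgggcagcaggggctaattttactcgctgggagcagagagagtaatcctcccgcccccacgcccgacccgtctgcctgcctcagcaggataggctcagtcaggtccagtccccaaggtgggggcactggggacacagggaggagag
Cacnb1, first window: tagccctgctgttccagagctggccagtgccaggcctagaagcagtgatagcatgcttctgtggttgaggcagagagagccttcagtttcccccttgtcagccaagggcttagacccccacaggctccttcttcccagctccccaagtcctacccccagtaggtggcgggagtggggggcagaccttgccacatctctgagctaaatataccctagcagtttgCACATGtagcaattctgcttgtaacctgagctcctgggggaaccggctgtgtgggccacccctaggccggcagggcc
Cacnb1, second window: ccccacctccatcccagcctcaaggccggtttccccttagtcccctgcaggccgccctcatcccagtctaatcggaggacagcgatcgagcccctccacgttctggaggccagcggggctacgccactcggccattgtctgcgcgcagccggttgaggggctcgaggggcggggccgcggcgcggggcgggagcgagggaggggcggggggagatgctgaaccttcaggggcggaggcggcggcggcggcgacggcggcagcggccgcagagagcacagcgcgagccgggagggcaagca
The Cacna1s window held 2 E-boxes, at -160 and -123 from the start, the second of them a CAGCTG. The first Cacnb1 window held 1 E-box at -27, and the second held no E-box. GC boxes (GGGCGG, on either strand) numbered 1 in the Cacna1s window, 0 in the first and 5 in the second Cacnb1 window, and stood in 6 of the 7 windows beside 35.7% of the windows of all genes. E-boxes stood in 4 of the 7 windows of these genes, beside 72.3% of the 32851 windows of all genes, and CAGCTG, which is itself an E-box, in 3 of 7 beside 16.3%. Of the 3 windows with CAGCTG, 2 were overlapping windows of Jph2. The MEF2 motif and the serum response factor CArG box, searched on both strands, were in 0 of the 7 windows, beside 3.19% and 1.63% of all windows. A match describes letters and not a bound site.

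The fourth voltage sensor gene, Cacna2d1, encodes the extracellular alpha-2/delta subunit that is shared with channels of many other tissues. Its signal was 14.92, 14.51 and 14.22 in cKO 1 to 3, against 14.30, 14.49 and 15.07 in Control 1 to 3. The groups overlapped, and the highest array was a Control one. The difference was -0.07 log2 units (SE 0.29, 95% interval -0.76 to 0.62), and its sign differed between the ranges, at 0.53 among low-numbered and -0.71 among high-numbered mice. Stac3, the adaptor that the voltage sensor needs to reach and trigger the release channel, stood at 12.05, 11.74 and 11.66 in cKO 1 to 3 and at 11.85, 12.05 and 11.97 in Control 1 to 3. It varied little, over 0.39 log2 units across all arrays, with a difference of -0.14 (SE 0.20, 95% interval -0.61 to 0.33).

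Ryr1 encodes the ryanodine receptor through which calcium leaves the store. Its signal was 17.55, 17.93 and 17.77 in cKO 1 to 3, against 17.55, 17.23 and 17.78 in Control 1 to 3. The groups overlapped, and the difference of 0.23 log2 units (SE 0.21) had a 95% interval of -0.27 to 0.73, which does not exclude a difference of the size seen for Cacna1s. Within the ranges it was 0.16 and 0.07. Ryr1 stayed at least 2.0 log2 units below the array maximum.

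The junctophilins differed from each other in which array stood apart. Jph1, the junctophilin of skeletal muscle triads, was at 12.87, 14.53 and 14.40 in cKO 1 to 3, against 14.09, 13.84 and 14.33 in Control 1 to 3. cKO 1 was more than 0.9 log2 units below every other array, while cKO 2 and cKO 3 were above every Control array. The difference was -0.16 log2 units with all arrays (SE 0.46, 95% interval -1.25 to 0.94) and 0.37 without cKO 1. limma also gave cKO 1 the smallest weight of the 6 arrays, 0.254, where the next was 0.589, and the part of that in the Jph1 value was not tested. Jph2, known best as the junctophilin of the heart and also present in skeletal muscle, was at 10.91, 11.34 and 11.04 in cKO 1 to 3, against 10.78, 10.51 and 11.02 in Control 1 to 3. Here cKO 1 lay between the Control values, and the difference was 0.33 log2 units (SE 0.22, 95% interval -0.20 to 0.86). Among low-numbered mice it was 0.27 and among high-numbered mice 0.17.

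Trdn encodes triadin, which anchors the release channel to calsequestrin in the store. It had the smallest spread of the 10 genes, with 18.35, 18.50 and 18.20 in cKO 1 to 3, against 18.17, 18.44 and 18.49 in Control 1 to 3. The groups overlapped fully, and the difference was -0.01 log2 units (SE 0.17, 95% interval -0.43 to 0.40), a sign that turned with array weights. Of the 10 genes its signals came nearest to the array maximum, at 1.41 log2 units below it. Whether the upper end of the scale compresses differences there was not tested. Jsrp1 encodes JP-45, a junctional protein that binds the voltage sensor and calsequestrin. Its signal was 9.76, 9.30 and 9.02 in cKO 1 to 3, against 9.18, 8.78 and 9.20 in Control 1 to 3. The difference was 0.31 log2 units (SE 0.25, 95% interval -0.29 to 0.90). It was 0.78 among low-numbered mice, -0.04 among high-numbered mice and 0.11 without cKO 1, the highest array.

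**Figure D2:**
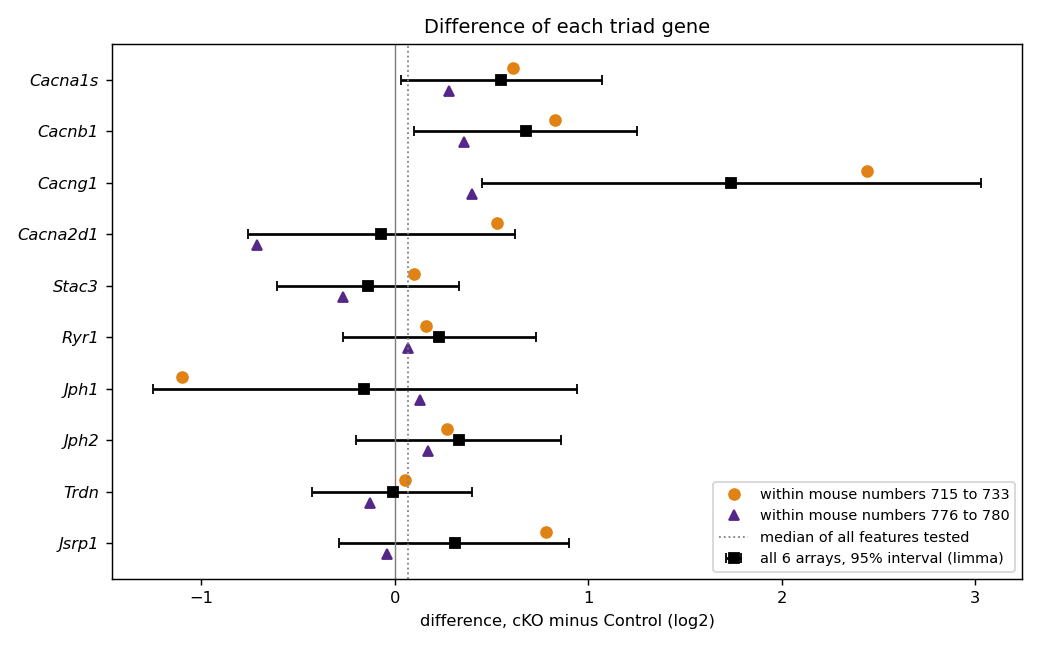
Difference in log2 signal (cKO minus Control, horizontal axis) of each triad gene, with squares and bars for the limma estimate and its 95% interval over 6 arrays, and circles and triangles for the difference among low-numbered and among high-numbered mice. The intervals of Cacng1, Cacnb1 and Cacna1s lie above 0 before adjustment, and 9 of the 10 genes have a larger value among low-numbered than among high-numbered mice. That count was not made over all features. cKO 1, the only low-numbered cKO array, deviated upward over all features tested (median 0.19). Control 3, the only high-numbered Control array, was above both other Control arrays for 9 of the 10 genes, beside 40.9% of features. The part of either array in the count was not tested, and the count is not read as a result about these genes.

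The high-numbered Control array stood apart from the others. Control 3 was above both Control 1 and Control 2 for 9 of the 10 genes, Stac3 being the exception, while this held for 40.9% of all features tested. Its distance to the mean of the other two had a median of 0.39 log2 units over the 10 genes, beside 0.03 over all features, and it reached 1.97 for Cacng1 and 0.68 for Cacna2d1. Among cKO arrays, cKO 2 and cKO 3 averaged 1.60 log2 units above cKO 1 for Jph1 and 0.60 below it for Jsrp1. Mean deviations of the 10 genes from their own means were 0.12, 0.28 and 0.11 in cKO 1 to 3, against -0.35, -0.34 and 0.17 in Control 1 to 3. cKO 2 held the highest value of 5 genes, among them Ryr1 and Cacna1s, and Control 2 the lowest of 4. The median difference of the 10 genes was 0.40 among low-numbered and 0.10 among high-numbered mice, and 5 of the 10 kept their sign in both. These values were not centred on array medians. Over all features tested, median deviations were 0.19, -0.04 and -0.06 in cKO 1 to 3, against -0.07, -0.06 and -0.02 in Control 1 to 3. The low-range differences therefore include an array-wide shift of cKO 1, and the high-range differences include the Control 3 values given above. The gap between the ranges was not counted over all features. The part of either array in it was not tested.

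The list of 26 other genes of the triad and T-tubule had 22 on a feature with 1 symbol, all of them tested. There were 17 higher and 5 lower in cKO (16 higher after quantile normalization), beside 65.8% higher over all features, with a median difference of 0.21 log2 units, and 0 passed an adjusted p of 0.05 in limma. At an unadjusted p under 0.05 there were 4, all higher, where 3.70% of all features were: Slc8a3, Dysf, Sypl2 and Bin1, of which Bin1 was named after its value was seen. Groups did not overlap for 8 of the 22 genes in the higher and 1 in the lower direction, beside 8.95% and 2.05% of all features. Dysf encodes dysferlin, a membrane repair protein that is also found at T-tubules. Its signal was 9.95, 10.28 and 10.38 in cKO 1 to 3, against 7.97, 7.54 and 9.91 in Control 1 to 3, with Control 3 again next to the cKO arrays. The difference was 1.73 log2 units (SE 0.59). Slc8a3, a sodium-calcium exchanger of the muscle membrane, differed by 0.90 log2 units (SE 0.30). Sypl2, the triad protein mitsugumin-29, differed by 0.74 (SE 0.29), with Control 3 above cKO 1. Bin1, which shapes T-tubules, differed by 0.54 (SE 0.22), with 0.90 among low-numbered and 0.11 among high-numbered mice.

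**Figure D3:**
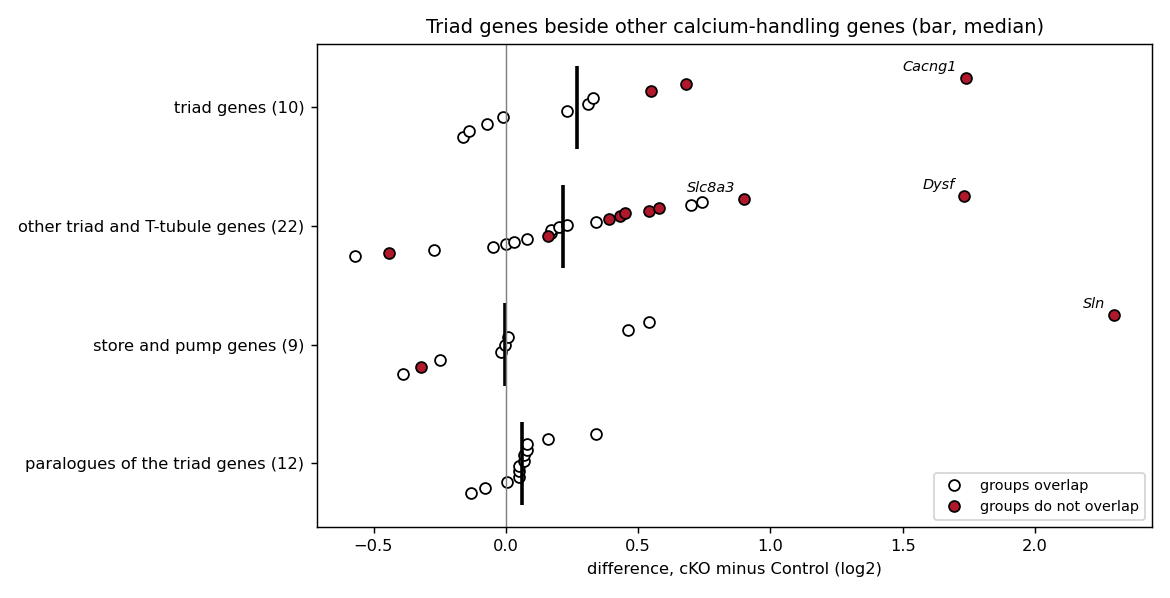
Difference in log2 signal (cKO minus Control, horizontal axis) of each tested gene of 4 lists, with filled points where the 3 cKO and 3 Control arrays do not overlap and bars for list medians. The triad genes and the other triad and T-tubule genes have medians of 0.27 and 0.21, and the store and paralogue lists have medians of -0.003 and 0.06, with Sln at 2.30 the highest point of the plot.

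Genes of the calcium store and its pump had 9 of 11 listed members tested, with 4 higher, 5 lower and a median difference of -0.003 log2 units, which is the value of Atp2a1, a gene near the ceiling of the scale. Sln encodes sarcolipin, a small inhibitor of the calcium pump, and it stood at 16.45, 16.65 and 16.94 in cKO 1 to 3, against 14.17, 13.59 and 15.38 in Control 1 to 3. All cKO arrays were above all Control arrays, by a mean of 2.30 log2 units (SE 0.45), which limma did not call (adjusted p = 0.999). The calsequestrins, which bind calcium inside the store, were on the other side of 0: Casq2 differed by -0.32 (SE 0.19) with all cKO arrays below all Control arrays, and Casq1 by -0.25 (SE 0.16). The pumps Atp2a1 and Atp2a2 lay at 19.6 to 19.8 log2 units, less than 0.5 below the array maximum on every array, so the ceiling could hide a difference in either. The other differences of the list ran from -0.39 for Pln, another inhibitor of the pump, to 0.54 for the calcium buffer Pvalb (SE 0.42 and 1.16), both named after their values were seen.

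Paralogues of the 10 genes were mostly at the level of the array median. Of 23 listed, 21 had a feature with 1 symbol and 14 of these stayed less than 0.5 log2 units above the array median on every array. These 14 included Ryr2, the cardiac release channel, and Ryr3, the isoform of developing muscle, which differed by 0.05 (SE 0.12). Only 12 passed the filter, with 10 higher, 2 lower and a median difference of 0.06 log2 units (6 higher after quantile normalization), and 0 had an unadjusted p under 0.05 in limma. The 3 with the smallest p were the channel subunits Cacna1a at 0.34 (SE 0.17), Cacna1c, the cardiac alpha subunit, at 0.16 (SE 0.14) and Cacna2d2 at -0.13 (SE 0.13). Cacng6 was the paralogue furthest above the array median, at 9.38 to 10.06 in cKO and 9.43 to 9.78 in Control, with a difference of 0.08 (SE 0.23). It was named after its value was seen.

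Markers of fibre type and of other cells were set beside the voltage sensor genes. For the counts that follow, 65.8% of all features tested were higher in cKO. All cKO arrays lay above all Control arrays for 8.95% of features. Fast fibre markers had 7 of 11 higher and a median difference of 0.01 log2 units, with list means of 15.55 to 17.38 in cKO and 15.32 to 16.22 in Control. Of the 11, 4 lay within 0.5 log2 units of the array maximum on every array, where the ceiling could hide a difference, and the median falls among such genes. Fast myosin Myh4 was at 13.51, 16.88 and 13.67 in cKO 1 to 3 and at 11.72, 13.62 and 13.52 in Control 1 to 3, and Actn3 at 11.47, 15.67 and 10.66 in cKO 1 to 3 and at 7.97, 11.27 and 10.72 in Control 1 to 3. Their differences were 1.73 (SE 0.99) for Myh4 and 2.61 (SE 1.45) for Actn3, the largest of the list. The other fast markers not near the ceiling on every array had smaller differences. Mybpc2 differed by 0.05 (SE 1.51), Myh1 by 0.02 (SE 0.22), Tnni2 by -0.18 (SE 0.19), Mylpf by -0.07 (SE 0.16) and Pvalb by 0.54 (SE 1.16). These were named after their values were seen. Myh4 and Actn3 were both highest in cKO 2 and lowest in Control 1. Without cKO 2 their differences were still 0.64 and 1.08, and those of Cacng1, Cacnb1 and Cacna1s were 1.76, 0.69 and 0.47. The part of fibre type in the triad values was not tested. Slow fibre markers had 7 of 8 higher and a median of 0.08, with slow myosin Myh7 at 0.05 (SE 0.15). Tendon markers had 7 of 8 tested and 7 higher, and the groups did not overlap for 5 of the 7. Their list means were 6.75, 6.95 and 7.26 in cKO 1 to 3 and 5.67, 5.70 and 6.50 in Control 1 to 3, so that Control 3 was the highest Control array here too. The tendon marker Tnmd was at 6.82 to 7.45 in cKO and 5.56 to 6.58 in Control. Scx of the same list differed by 0.07 (SE 0.15) with overlapping groups, and Mkx did not pass the filter. Tnmd, Scx and Mkx were named after their values were seen. The part of tendon tissue in the triad values was not tested. Of the other lists, adipocyte markers had 5 of 6 higher, with list means of 6.96 to 7.37 in cKO and 6.74 to 6.87 in Control. Macrophage markers had 6 of 6 higher, with 6.13 to 7.03 in cKO and 5.75 to 6.47 in Control. Smooth muscle and pericyte markers had 5 of 6 higher, with 8.92 to 9.29 in cKO and 8.65 to 9.07 in Control. Fibroblast markers had 3 of 6 higher (9.86 to 10.90 in cKO, 9.81 to 10.67 in Control), Schwann cell markers 2 of 4 (6.35 to 6.57 in cKO, 6.27 to 6.61 in Control) and endothelial markers 1 of 6 (9.53 to 9.66 in cKO, 9.39 to 10.44 in Control). Groups did not overlap, with cKO higher, for 3 of the 6 adipocyte markers and for 1 of the 6 smooth muscle and pericyte markers. With cKO lower, they did not overlap for 1 of the 6 endothelial markers, beside 2.05% of all features. Macrophage, fibroblast and Schwann cell markers all overlapped. The part of these cell types in the triad values was not tested.

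**Figure D4:**
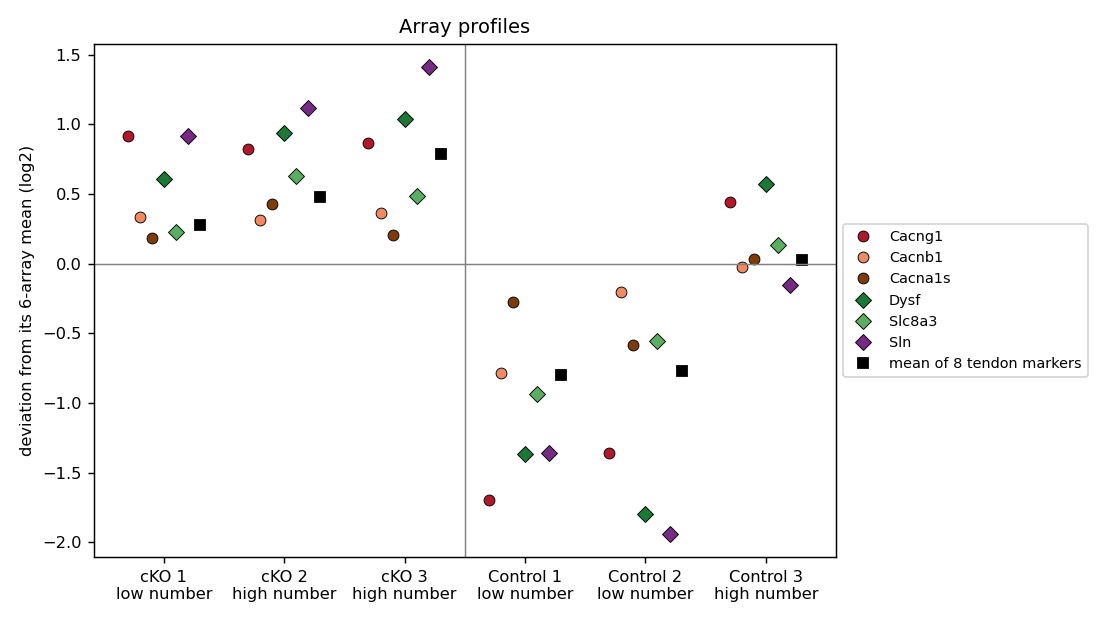
Deviation of log2 signal from its own mean over 6 arrays (vertical axis) for 3 voltage sensor genes (circles), Dysf, Slc8a3 and Sln (diamonds) and the mean of 8 tendon markers (squares), by array. Control 1 and Control 2 are the lowest arrays for every gene and list shown, and Control 3 lies between them and the cKO arrays. Every gene shown has groups that do not overlap, so its Control values lie below its cKO values by the choice of genes. Of the triad genes not shown, Cacna2d1 was highest in Control 3.

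The genes whose profile over the 6 median-centred arrays came nearest to the mean profile of the 10 triad genes were Dhdh (Pearson r = 0.999), Fbf1 (0.997) and Ccdc6 (0.995). These were the highest of 18324 genes compared over 6 arrays that share the same spread, so such values are a description of likeness only. Fbf1 varied over 0.36 log2 units in all.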

How the data were processed

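RNA of soleus was measured on 1 Affymetrix whole-transcript array for each of 6 mice. Per the labels' protocols, 100 ng of total RNA was converted to biotinylated cDNA. The authors deposited 1 value per feature and array, read here as log2 signals from their range of 1.92 to 19.93. How those values were background-corrected, summarised and normalized, and on which build, is not given in the sources used here. Of 72688 features, 6732 held no value, and 30604 of the other 65956 carried 1 gene symbol in the platform annotation, 2146 several and 33206 none. Of the 30604, 22818 were matched by Entrez identifier to RefSeq on GRCm38.p6, with 827 symbols updated.

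The 33334 features that exceeded the array median on 3 or more arrays went into limma 3.58.1 under R 4.3.3 (lmFit, then eBayes with a trend on intensity, two-sided, without blocks), with Benjamini-Hochberg adjustment over all of them. For genes with several features the one of highest mean stood for the gene. Tested on simulated data with the same number of features (33334) and the same spread of each feature, the fit recovered 15% of 2-fold and 68% of 4-fold changes. It also called 6 unchanged features. The simulated noise was independent between features, without the shifts that features of 1 array share here. Intervals are limma's 95% intervals and are not adjusted. The 10 genes, the gene lists and the tests were chosen with earlier results of these data known. Named genes were the 10, Mbtps1, the 3 with the smallest p of each of the 3 calcium-handling lists, Casq1, Atp2a1, Atp2a2, Ryr3, Cacna1c, Myh4, Actn3, Myh7 and the 3 most similar profiles, and others, such as Bin1, Cacng6, Ryr2, Tnmd and Dmp1, were chosen after their values were seen. Tables were made with Python 3.11.15 and pandas 2.3.3, plots with matplotlib 3.10.9. Alternatives were quantile normalization, median centring, 2 other filters, eBayes without a trend or robust, array weights, the replicate number or the mouse number range as a block, gene means over features, each array left out, and, added after the values were seen, quantile normalization with the range block.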

Additional observations from a re-analysis of the deposited data

How the results depend on the processing

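No triad gene passed an adjusted p of 0.05 in limma under any of the 17 alternatives. The differences of Cacng1 (1.30 to 2.39 log2 units), Cacnb1 (0.45 to 0.84), Cacna1s (0.39 to 0.70), Jph2, Ryr1, Jsrp1 and Stac3 kept their sign in all 17. Trdn turned to 0.11 with array weights, and over the fits that left out 1 array it ran from -0.11 to 0.06 (positive without Control 2 at 0.03, Control 3 at 0.05 and cKO 3 at 0.06). Jph1 turned to 0.34 with array weights, and ran from -0.46 to 0.37 when 1 array was left out (0.37 without cKO 1). Cacna2d1 ran from -0.25 to 0.16 (0.16 without Control 3, 0.10 without cKO 3). The cause was not tested. The 3 triad genes at an unadjusted p under 0.05 became 1 after median centring, 1 with the mouse number range as a block and 1 with the replicate block, and 0 to 3 when 1 array was left out. Same-numbered cKO and Control arrays correlated at 0.13, -0.20 and 0.21 in their deviations from the group means. The value of -0.20 belongs to cKO 2 and Control 2, which lie in different mouse number ranges. These values therefore cannot tell whether the replicate numbers pair the mice. The 4 cKO and Control pairs that share a mouse number range correlated at 0.13 to 0.39, and the 5 pairs across ranges at -0.41 to 0.08. Over all features, 4256 had an unadjusted p under 0.05 with array weights against 1501 as reported, and leaving out 1 array gave 955 (without cKO 3) to 3065 (without Control 3). The features past an adjusted p of 0.05 numbered 0 to 14 in those fits, 14 without Control 3. The median difference of the paralogues was 0.21 with the filter at the 75th percentile, where fewer of them were tested. The median difference of the 10 triad genes ran from 0.13 to 0.37 when 1 array was left out.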
